A study of Mus musculus with 6 samples.

Results

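The genes described here are 10 tetraspanins of lymphocytes and other cells: Cd53, Cd37, Tspan32, Cd82, Tspan13, Cd151, Tspan31, Cd9, Cd63 and Cd81. They were taken by gene symbol from a table of 51912 mouse genes, and each symbol matched 1 row. The list was chosen by symbol with earlier results in view, that is, with the level and the difference of these genes between the 2 groups known, and it has no threshold. Of the 10 genes, 7 passed the filter on low counts and were tested, while Cd9, Cd63 and Cd81 were not. The counts came from EL4, an established T lymphoma line of the mouse with a wild-type genotype per the labels. Of its cultures, 3 libraries were from cells exposed to the vehicle alone and 3 from cells exposed to 10 µM RGFP966, a small-molecule inhibitor of HDAC3, with 24 h between the addition and the harvest. Both groups are the same line, and no label states that the 3 libraries of each group are separate cultures, so the p-values measure the spread between these libraries, which may be technical. The comparison asks which tetraspanin transcripts differ in level when HDAC3 is inhibited.

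Tetraspanins are small proteins that cross the membrane several times and expose a small and a large extracellular loop. They bind each other, integrins and immunoglobulin-family receptors side by side in the membrane, and so set where those partners sit and how they signal. In lymphocytes they act in adhesion, in the trafficking of receptors and in the release of vesicles. CD53, CD37 and TSPAN32 are largely restricted to blood cells, CD82 and CD151 are widespread partners of integrins, and CD9, CD63 and CD81 are the usual marker proteins of extracellular vesicles.

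Library totals lay between 12935443 and 16451017 counts, and the vehicle libraries were the larger. All 9 T cell markers were tested, and their summed level was 1592 to 1596 CPM (counts of a gene scaled to a common library total) in vehicle and 1638 to 1681 CPM in RGFP966 libraries. Of the 9, 3 were higher and 1 lower at an adjusted p under 0.05 by edgeR, beside 11.4% and 11.9% of all tested genes. The extraction text of the labels speaks of retinas. The 7 retina markers summed to 3.86 to 4.61 CPM in vehicle and 3.75 to 4.34 CPM in RGFP966 libraries, with Gnat1 and Crx at 0 counts in every library. The 5 platelet markers summed to 1.47 to 2.15 and 1.40 to 2.14 CPM (Pf4 and Ppbp at 0), and the 6 myeloid markers to 8.35 to 10.3 and 9.25 to 9.77 CPM (Adgre1 at 0). The 2 myeloid markers that were tested had log2 fold changes of -0.07 and 0.95, and neither passed at that threshold. The 6 fibroblast markers summed to 44.3 to 45.5 and 54.8 to 57.4 CPM. Most of this was the growth factor receptor gene Pdgfra, which rose from 44.3 to 54.1 CPM (adjusted p = 2.10e-04), and Col3a1 was at 0 counts. The other fibroblast marker that was tested had a log2 fold change of 1.12 and did not pass. Hdac3 transcripts measured 89.1 ± 3.83 (SD, n = 3) and 85.9 ± 2.49 CPM, which did not pass the test.

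The sequences before the RefSeq start sites of 4 members are shown, since Cd53 and Tspan13 rose, Tspan32 fell, and Cd81, which is next to Tspan32 on chromosome 7, was close to undetected. RefSeq starts on GRCm38.p6 were found for all 10 members. Each line gives the 250 bases before the start, 5′ to 3′ on the gene's strand, with capitals for matches on either strand to any of 6 motifs. The motifs searched were the GC box GGGCGG, the ETS core CCGGAA, the RUNX core TGTGGT, the TATA box TATAAA, the octamer ATTTGCAT and the cyclic AMP response element TGACGTCA. No match in these members overlapped another.
Cd53: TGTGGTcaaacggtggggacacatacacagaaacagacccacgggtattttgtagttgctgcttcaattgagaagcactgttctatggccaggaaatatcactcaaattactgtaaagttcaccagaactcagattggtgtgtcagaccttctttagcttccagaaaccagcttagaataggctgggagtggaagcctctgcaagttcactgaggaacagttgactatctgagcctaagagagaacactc
Tspan13: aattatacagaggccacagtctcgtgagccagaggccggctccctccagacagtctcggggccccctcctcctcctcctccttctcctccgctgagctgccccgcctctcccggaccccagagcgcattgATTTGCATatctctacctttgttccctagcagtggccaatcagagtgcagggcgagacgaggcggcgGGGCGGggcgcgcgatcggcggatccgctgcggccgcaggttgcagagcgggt
Tspan32: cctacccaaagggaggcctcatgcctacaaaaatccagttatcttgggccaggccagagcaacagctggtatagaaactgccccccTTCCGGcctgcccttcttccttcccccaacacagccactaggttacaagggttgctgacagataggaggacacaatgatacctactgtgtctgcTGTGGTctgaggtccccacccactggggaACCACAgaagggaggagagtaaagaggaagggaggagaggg
Cd81: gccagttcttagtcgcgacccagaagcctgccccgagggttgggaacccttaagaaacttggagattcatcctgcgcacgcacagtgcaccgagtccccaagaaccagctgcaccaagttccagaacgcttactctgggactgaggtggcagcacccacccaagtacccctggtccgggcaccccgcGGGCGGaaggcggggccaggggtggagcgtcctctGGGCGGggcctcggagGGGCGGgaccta
These windows are chr3:106790150-106790399 (minus strand), chr12:36042479-36042728 (minus strand), chr7:143004796-143005045 (plus strand) and chr7:143052500-143052749 (plus strand).

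The Cd53 window held 1 RUNX core and 2 CpG dinucleotides, and the Tspan32 window held 2 RUNX cores, 1 ETS core and 1 CpG. The Tspan13 window held 21 CpG, 1 GC box and 1 octamer, the site of the OCT factors. The Cd81 window held 16 CpG and 3 GC boxes, the site of SP1. The window of Cd9, of which no read was counted, also held 16 CpG, with 2 GC boxes and 1 ETS core. Over all 32851 promoters of the table the median was 6 CpG, and 32.7% held the GC box, 14.0% the RUNX core, 12.0% the ETS core, 12.4% the TATA box, 1.60% the octamer and 1.55% the cyclic AMP element. So of the members shown, the CpG-rich windows belonged both to a transcript that was abundant (Tspan13) and to one that was close to undetected (Cd81), and the CpG-poor ones to a transcript that rose and to one that fell. A match says only that these letters are in the window.

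EL4 cells held 5 of the 10 genes at levels well above the other 5. Levels were compared between genes per kilobase, as CPM divided by the length of all annotated exonic sequence. In vehicle libraries Tspan13 stood highest at 29.5 ± 0.723 CPM per kilobase (SD, n = 3), above Cd37 at 24.5 ± 1.69, Cd53 at 22.2 ± 0.414, Tspan32 at 19.9 ± 0.438 and Cd82 at 18.9 ± 0.196. Tspan13 exceeded 85.4% of all tested genes on this scale, and Cd82 exceeded 76.5%. Cd151 followed at 4.89 ± 0.695 and Tspan31 at 1.66 ± 0.121 CPM per kilobase. The libraries of neighbours in this order did not overlap, except those of Cd81 and Cd63 at its low end.

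That order depends on the length used, a point examined after the data were seen. Tspan32 has 6234 bases of annotated exonic sequence but a longest coding transcript of 1876 bases. Per kilobase of that transcript it came first, at 66.2 ± 1.46 CPM per kilobase (SD, n = 3) in vehicle, and Cd53, whose 2 lengths are both 1742 bases, came behind Tspan13, Cd37 and Cd82 at 22.2 ± 0.414. With RGFP966, Cd53 reached 39.6 ± 1.51 CPM per kilobase of exonic sequence. It then lay level with Tspan13 at 39.2 ± 0.274, and the libraries of these 2 genes overlapped. Per kilobase of the longest transcript Cd53 moved above Cd82 and Cd37, whose libraries overlapped, and Tspan32 kept the first place.

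**Figure D1:**
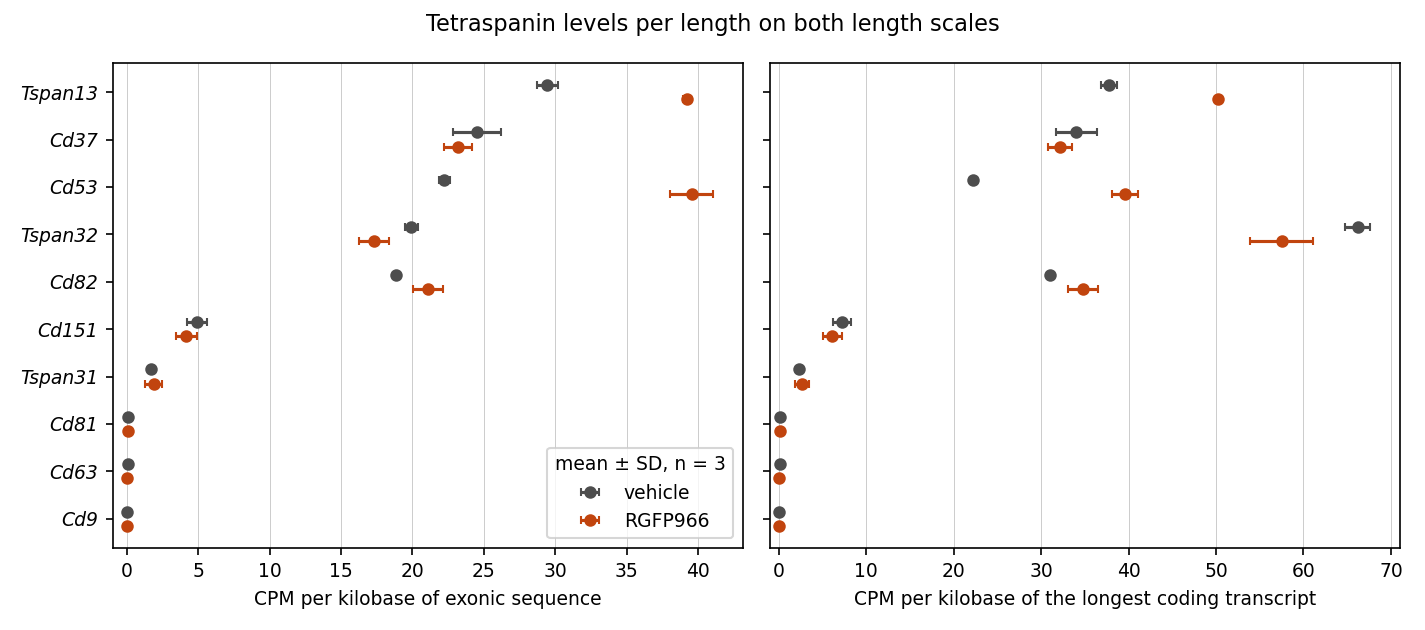
Levels of the 10 tetraspanins in CPM per kilobase of exonic sequence (left) and per kilobase of the longest coding transcript (right), with points for the mean and bars for the SD of 3 libraries in vehicle (grey) and RGFP966 (orange). Cd53 moves from 22.2 to 39.6 on both axes, Tspan32 is first only on the right, and Cd81, Cd63 and Cd9 lie at the zero end in both groups.

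The usual vesicle markers were close to undetected. Cd9 (chromosome 6, 125460266 to 125494791, minus strand, ENSMUSG00000030342), which encodes a tetraspanin of platelets, sperm-egg fusion and vesicles, had 0 counts in all 6 libraries. A count of 0 allows up to 0.0634 CPM over the vehicle libraries together and 0.0724 CPM over the RGFP966 libraries, if 3 counts are taken as the limit. Cd63 (chromosome 10, 128900989 to 128912822, plus strand, ENSMUSG00000025351), the tetraspanin of lysosomes and granules, had 2, 4 and 1 counts in vehicle libraries 1 to 3 and 1, 1 and 0 in RGFP966 libraries 1 to 3. Cd81 (chromosome 7, 143052739 to 143067934, plus strand, ENSMUSG00000037706), a tetraspanin of lymphocyte receptor complexes, had 2, 4 and 5 counts and then 3, 1 and 6. These are at or near the limit of counting in both groups, so no fold change is given.

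Pooled over the 3 libraries, Cd63 measured 0.148 CPM in vehicle (exact 95% Poisson interval 0.0595 to 0.305, for counting error alone) and 0.0483 CPM in RGFP966 (0.00585 to 0.174). Cd81 measured 0.233 CPM (0.116 to 0.416) and 0.241 CPM (0.116 to 0.444). A difference between the groups was not detectable at this depth for either gene. Other annotated genes share some of their sequence. The pseudogene Cd63-ps shares most with Cd63, of whose 50-base exonic words 11.1% occur in other genes, and it had at most 1 count in any library. R74862, a transcript antisense to 3.61% of the Cd81 exons, had 34 to 64 counts per library. Gm26728 overlaps 10.7% of the Cd9 exons and, like the pseudogene Cd9-ps, had 0 counts. Cd63-ps and Cd9-ps were looked up after the member values were seen.

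Of the 7 tested members, Cd53, Tspan13 and Cd82 rose and Tspan32 fell, and 3 were not called. The fit was edgeR's quasi-likelihood test over 13484 genes, with a call at a Benjamini-Hochberg adjusted p under 0.05. Among all those genes 23.3% were called, 11.4% as higher and 11.9% as lower, and in 36.3% the groups did not overlap. The members had been gathered with results of this comparison known, so their 4 calls describe them and nothing is read from their share. The median log2 fold change of the 7 was 0.16, the value of Cd82, and that of all tested genes -0.0019. It was 0.024 without RGFP966 library 1 and 0.057 at a minimum mean of 5 CPM. For the same reason nothing is read from this median. In RNA from whole cultures, a change in the level per cell cannot be told apart from a change in the share of cells with the transcript. Summed over the 10 genes, the level was 394 to 400.1 CPM in vehicle libraries and 424 to 444 CPM in RGFP966 libraries.

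Among the blood-cell tetraspanins, Cd53 had the largest difference of the 7 tested members. Cd53 (chromosome 3, 106759921 to 106790149, minus strand, ENSMUSG00000040747), which encodes a leukocyte tetraspanin that binds CD45, measured 38.7, 38.0 and 39.5 CPM in vehicle libraries 1 to 3 and 66.5, 71.7 and 68.6 CPM in RGFP966 libraries 1 to 3. Every RGFP966 library lay far above every vehicle library. The fold change was 1.78, a log2 fold change of 0.83 ± 0.06 (SE), and its p ranked 9 from the smallest of all genes tested (adjusted p = 4.31e-16). None of its exons overlaps another gene, and no 50-base word of it occurs in another.

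Tspan32 moved the other way. Tspan32 (chromosome 7, 143005046 to 143019644, plus strand, ENSMUSG00000000244), whose loss in mice makes T cells respond more strongly, measured 122, 127 and 123 CPM in vehicle and 114, 101 and 109 CPM in RGFP966 libraries. All 3 RGFP966 libraries lay below the lowest vehicle library. It fell by 0.20 on the log2 scale (SE 0.05, adjusted p = 7.60e-04), which is a percent change of -13.1. The antisense transcript Tspan32os covers 4.35% of its exons and had 24 to 48 counts per library.

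Cd37 stayed within the spread of its libraries. Cd37 (chromosome 7, 45233632 to 45239115, minus strand, ENSMUSG00000030798), which encodes a tetraspanin of mature lymphocytes that restrains their growth signals, measured 93.3, 82.7 and 83.2 CPM in vehicle and 81.1, 78.6 and 85.5 CPM in RGFP966 libraries. The groups overlapped, and vehicle library 1 stood above the other 5. The log2 fold change was -0.08 (95% interval -0.18 to 0.025, adjusted p = 0.300), so the interval leaves out a change as large as that of Cd53.

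Ratios of counts within a library do not depend on how the libraries are scaled. For each count of Tspan32 there were 0.318, 0.299 and 0.320 counts of Cd53 in vehicle libraries 1 to 3 and 0.583, 0.713 and 0.630 in RGFP966 libraries 1 to 3. The ratio of Cd53 to Cd37 went from 0.415, 0.460 and 0.474 to 0.820, 0.913 and 0.802. In both ratios the groups lay apart. The ratios restate the differences of these genes given above, so they are a description and no further support.

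B cells also carry CD37 and CD53. The 6 B cell markers summed to 11.3 to 12.0 CPM in vehicle and 18.3 to 18.7 CPM in RGFP966 libraries. Most of that sum was Cd22, a lectin receptor that rose from 9.40 ± 0.683 to 16.6 ± 0.232 CPM (log2 fold change 0.82, adjusted p = 9.66e-08). The defining marker Ms4a1 had 0 counts in every library, and Cd22 and Pax5 alone of the 6 passed the filter. Pax5, a transcription factor of B cells, measured 1.71 ± 0.468 and 1.07 ± 0.295 CPM with overlapping groups (log2 fold change -0.66, adjusted p = 0.159).

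Of the widely expressed tetraspanins, Tspan13 and Cd82 rose. Tspan13 (chromosome 12, 36014557 to 36042500, minus strand, ENSMUSG00000020577) measured 71.2, 72.7 and 74.8 CPM in vehicle and 97.2, 97.6 and 96.3 CPM in RGFP966 libraries. The libraries of each group lay close together and far from those of the other. Its log2 fold change was 0.41 ± 0.05 (SE, adjusted p = 2.74e-09), a rise of 33.1%. In CPM, not divided by length, Tspan13 added 24.1, Cd53 30.2 and Cd82 6.70. Per kilobase of exonic sequence, Tspan13 went from 29.5 to 39.2 CPM, and Cd53, the shorter gene on that measure, from 22.2 to 39.6 CPM.

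Cd82 (chromosome 2, 93419111 to 93463140, minus strand, ENSMUSG00000027215), which encodes a suppressor of metastasis that binds integrins, measured 56.0, 56.8 and 57.2 CPM in vehicle and 66.9, 60.8 and 62.4 CPM in RGFP966 libraries. The groups did not overlap, but RGFP966 library 1 stood above the other 2 of its group. The log2 fold change was 0.16 ± 0.06 (SE, adjusted p = 0.0273). This call was lost without that library (log2 fold change 0.12, adjusted p = 0.193), without vehicle library 1 (0.16, adjusted p = 0.0702) and in the DESeq2 Wald test (0.17, adjusted p = 0.0696), in a range from 0.0113 to 0.193.

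Cd151 and Tspan31 were not called. Cd151 (chromosome 7, 141467392 to 141471473, plus strand, ENSMUSG00000025510), a partner of laminin-binding integrins, measured 15.3, 13.4 and 11.5 CPM in vehicle and 13.0, 9.15 and 12.0 CPM in RGFP966 libraries. The groups overlapped, and the log2 fold change was -0.23 (95% interval -0.48 to 0.016, adjusted p = 0.181). It was -0.12 without vehicle library 1 and -0.10 without RGFP966 library 2, and reached -0.34 without RGFP966 library 1. Tspan31 (chromosome 10, 127067280 to 127070264, minus strand, ENSMUSG00000006736), a gene co-amplified with Cdk4 in sarcomas, measured 3.33, 3.80 and 3.77 CPM in vehicle and 4.85, 4.89 and 2.61 CPM in RGFP966 libraries. RGFP966 library 3 was the lowest of all 6 and the other 2 of its group the highest. The log2 fold change was 0.17 (95% interval -0.26 to 0.60, adjusted p = 0.632). It was 0.024 without RGFP966 library 1, 0.026 without RGFP966 library 2 and 0.43 without RGFP966 library 3, none of them called.

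Of the 10 members, Tspan31 has the largest share of exonic sequence overlapped by another gene. The cell cycle kinase gene Cdk4 lies on the opposite strand and covers 29.2% of the Tspan31 exons. Cdk4 fell from 302 ± 9.55 to 273 ± 6.51 CPM (SD, n = 3; log2 fold change -0.14, adjusted p = 3.75e-03). The sources used here do not give the strand setting of the counting, so reads of the 2 genes in that stretch cannot be told apart. Tspan31 counts were 1.13 to 1.27% of the Cdk4 counts in vehicle and 0.970 to 1.81% in RGFP966 libraries.

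**Figure D2:**
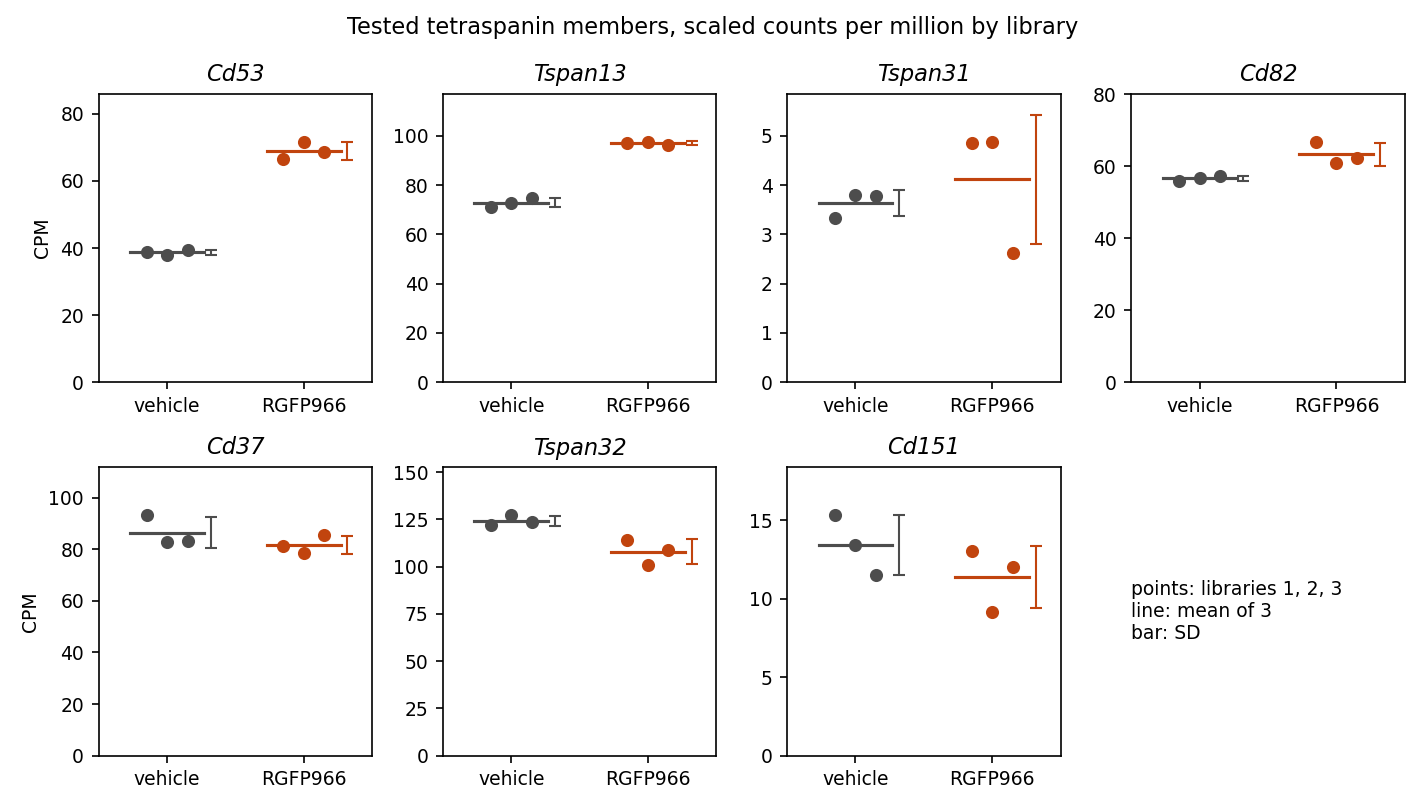
CPM of the 7 tested members in each library, 1 panel per gene with its own axis from 0, with lines for the mean and bars for the SD of 3 libraries. Cd53, Tspan13 and Cd82 lie higher and Tspan32 lower in all 3 RGFP966 libraries, while the groups overlap in Tspan31, Cd37 and Cd151.

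In the rest of the family, 3 genes rose and 0 fell by edgeR. At an unadjusted p under 0.05, 6 were higher and 0 lower, where 16.4% of all tested genes were higher and 17.4% lower. DESeq2 and limma-voom also called 3 higher and 0 lower. The table holds 21 further tetraspanins, of which 10 were tested and 11 were not, with at most 7 counts in any library. The 3 calls stand beside the 11.4% of all genes called higher, and the median log2 fold change of the 10 was 0.18. In 7 of the 10 the groups did not overlap, in either direction, beside 36.3% of all genes. Among them Tspan17 lay lower with RGFP966, at 4.34, 4.19 and 3.82 CPM, than in vehicle libraries, at 5.41, 4.59 and 4.48 CPM. This list, too, was made with earlier results of these data known, so nothing is read from its share.

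Tspan18, an endothelial tetraspanin that controls calcium entry through ORAI1, measured 43.4, 41.2 and 40.9 CPM in vehicle and 52.1, 60.3 and 58.1 CPM in RGFP966 libraries. All RGFP966 libraries were higher (log2 fold change 0.44 ± 0.06 SE, adjusted p = 2.22e-07). Rom1, which encodes a tetraspanin of photoreceptor discs, measured 2.41, 3.00 and 3.77 CPM and then 4.56, 5.04 and 5.23 CPM (0.69 ± 0.20, adjusted p = 8.85e-03). Its groups did not overlap, and its call was lost without vehicle library 1 (0.55, adjusted p = 0.0629), in a range from 3.98e-03 to 0.0629. The 7 retina markers, given above, summed to 3.86 to 4.61 CPM in vehicle and 3.75 to 4.34 CPM in RGFP966 libraries. The 2 of them that were tested had log2 fold changes of -0.31 and 0.19, neither called. The source of the Rom1 transcripts was not tested.

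Some tetraspanins escort the protease ADAM10, which sheds Notch and other surface proteins, to the cell surface. Of this group Tspan5 rose, from 29.6, 30.4 and 29.0 CPM to 38.8, 32.3 and 35.2 CPM (log2 fold change 0.26 ± 0.07 SE, adjusted p = 7.73e-03). Without RGFP966 library 1, its highest, the log2 fold change was 0.19 and the adjusted p 0.113, in a range from 2.50e-03 to 0.113. Tspan14 measured -0.08 (adjusted p = 0.465), Tspan17 -0.23 (0.405) and Tspan33 0.69 (0.0935) by the same test, none of them called. Without vehicle library 2, Tspan33 passed (0.96, adjusted p = 0.0469). Tspan10 and Tspan15 had 0 counts in every library. Adam10 itself measured 170 ± 12.2 and 162 ± 5.91 CPM (SD, n = 3), a log2 fold change of -0.07 (95% interval -0.16 to 0.020, adjusted p = 0.283). Without vehicle library 2, its lowest of that group, it passed (-0.12, adjusted p = 0.0346), in a range from 0.0346 to 0.884.

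**Figure D3:**
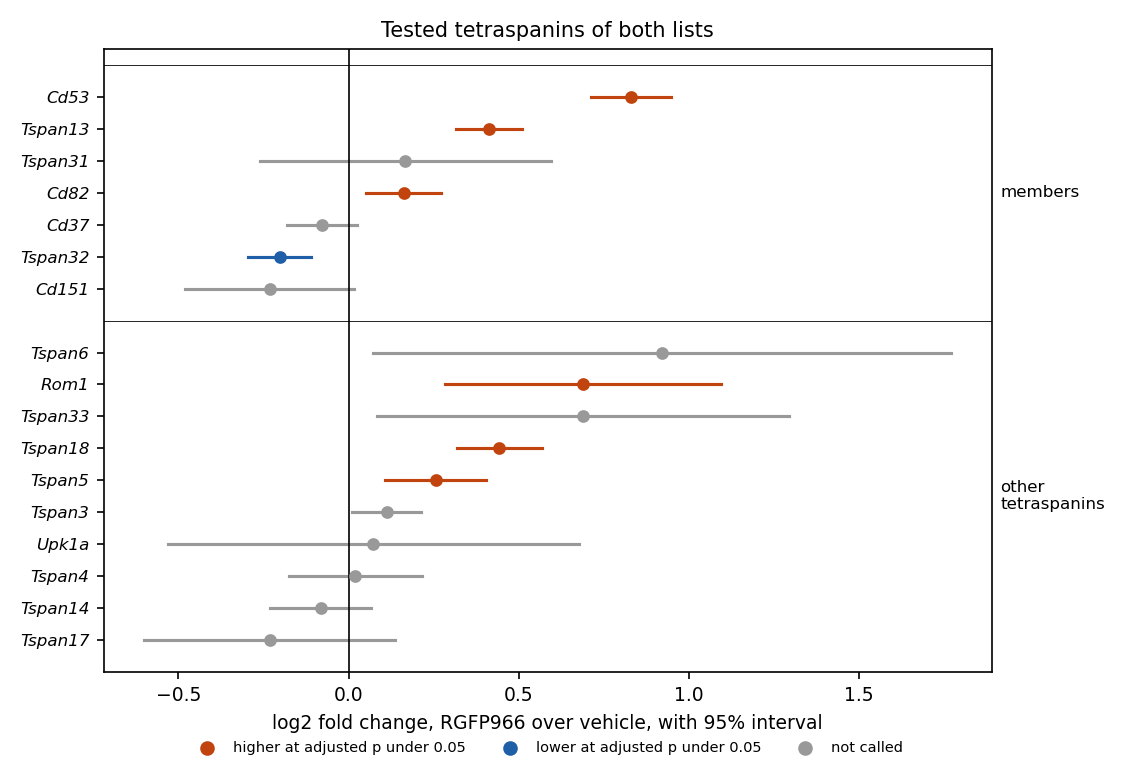
Log2 fold change of the 17 tested tetraspanins (points) with 95% intervals (lines), members above and the rest of the family below, coloured by the call at an adjusted p under 0.05. Cd53, at 0.83, is the highest of the members, 3 other tetraspanins are called higher, and Tspan32 is the 1 gene called lower.

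Among genes of tetraspanin partners, 9 rose and 1 fell of 27 tested by edgeR. Limma-voom gave the same counts, and the DESeq2 Wald test called 6 higher and 1 lower. With 1 library left out, edgeR called from 7 (without RGFP966 library 2) to 11 (without vehicle library 1). The list held 39 genes: integrins, other surface proteins that tetraspanins hold, and cytoplasmic proteins that bind their tails. Of all tested genes 11.4% were called higher and 11.9% lower, and the median log2 fold change of the 27 was 0.13. The list was made with earlier results of these data known. Its counts, and those of its parts below, are therefore a description, and nothing is read from their share.

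Among integrins, Itgal rose from 249 ± 5.75 to 294 ± 6.48 CPM (SD, n = 3; log2 fold change 0.24, adjusted p = 2.11e-06). It encodes the alpha chain of LFA-1, the integrin with which T cells bind other cells. Itgb2, the gene of its beta chain, measured 154 ± 5.21 and 148 ± 3.93 CPM (-0.05, 95% interval -0.14 to 0.031, adjusted p = 0.403). Itga6, the alpha chain of a laminin receptor that CD151 binds, measured 20.1 and 24.0 CPM with overlapping groups (0.26, adjusted p = 0.0271), and Itgb7 0.615 and 1.33 CPM (1.11, adjusted p = 0.0317).

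The call of Itga6 was lost in the DESeq2 Wald test and with library 2 or library 3 of either group left out, with adjusted p up to 0.173. That of Itgb7 was lost without the same vehicle libraries, without RGFP966 library 1 or 2, with no filter and after thinning, with adjusted p up to 0.130. Itgb7 had no adjusted p in the DESeq2 Wald test and was not kept at a minimum mean of 5 CPM. Itgav, an integrin alpha chain, measured 65.4 ± 0.831 and 65.4 ± 4.61 CPM (SD, n = 3) and was not called (log2 fold change 0.0013, 95% interval -0.11 to 0.11, adjusted p = 0.990). Itgb1, the common beta chain, measured 0.785 ± 0.275 and 0.750 ± 0.213 CPM, Itga4 measured 4.39 and 3.95 CPM, and Itga5 had 0 counts. Neither Itgb1 (adjusted p = 0.938) nor Itga4 (adjusted p = 0.653) was called.

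Among surface partners, 5 of 12 tested rose and 0 fell by edgeR, while 7 were higher and 1 lower at an unadjusted p under 0.05. Beside them stand 11.4% of all genes called higher and 11.9% called lower, and 16.4% and 17.4% at the unadjusted threshold. Cd44, the hyaluronan receptor, measured 137, 139 and 144 CPM in vehicle and 183, 181 and 184 CPM in RGFP966 libraries (log2 fold change 0.38 ± 0.04 SE, adjusted p = 2.88e-10). Its groups lay far apart. Cd5, an inhibitory receptor found with CD9, rose by 0.28 (adjusted p = 3.29e-06), and Ptprc, the gene of the CD53 partner CD45, by 0.22 (adjusted p = 2.34e-06). Cd2, an adhesion receptor, rose by 0.56 (adjusted p = 1.00e-03). Icam1, the ligand of LFA-1, named after its value was seen, rose by 0.56 (adjusted p = 8.10e-03), but not without vehicle library 2 (0.43, adjusted p = 0.0811). Igsf8, which encodes an immunoglobulin-family protein that binds CD9 and CD81 directly, measured 35.3 ± 2.04 and 31.8 ± 1.87 CPM (-0.15, adjusted p = 0.136).

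Of 8 tested cytoplasmic partners 1 rose and 1 fell, where 11.4% of all tested genes were called higher and 11.9% lower. Pi4k2a, a phosphatidylinositol kinase that binds tetraspanins, fell by 0.21 on the log2 scale (adjusted p = 2.31e-03), but not without RGFP966 library 3 (-0.16, adjusted p = 0.0539). Socs3, an inhibitor of cytokine signals tied to CD37, went from 0.530 ± 0.170 to 1.39 ± 0.576 CPM (1.37, adjusted p = 0.0115). Its call was lost without vehicle library 3 (1.19, adjusted p = 0.0598) and without RGFP966 library 2 (1.02, adjusted p = 0.144). Socs3 had no adjusted p in the DESeq2 Wald test and was not kept at a minimum mean of 5 CPM.

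The vesicle markers Cd9, Cd63 and Cd81 being close to undetected, the genes of vesicle release were also read. Of 12 tested, 0 rose and 2 fell by edgeR, DESeq2 and limma-voom alike, and at an unadjusted p under 0.05 also 0 were higher and 2 lower. Of all tested genes 11.9% were called lower, and 17.4% were lower at the unadjusted threshold, so 2 of 12 is near the share of all genes. Those that fell were Chmp4b, a subunit of the membrane-cutting ESCRT complex, by 0.15 (adjusted p = 6.47e-03) and Rab35, a regulator of recycling endosomes, by 0.20 (adjusted p = 3.40e-03). Both calls were lost without RGFP966 library 3, with adjusted p of 0.0715 and 0.0699. Over the 12 tested vesicle genes the median log2 fold change was -0.030.

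**Figure D4:**
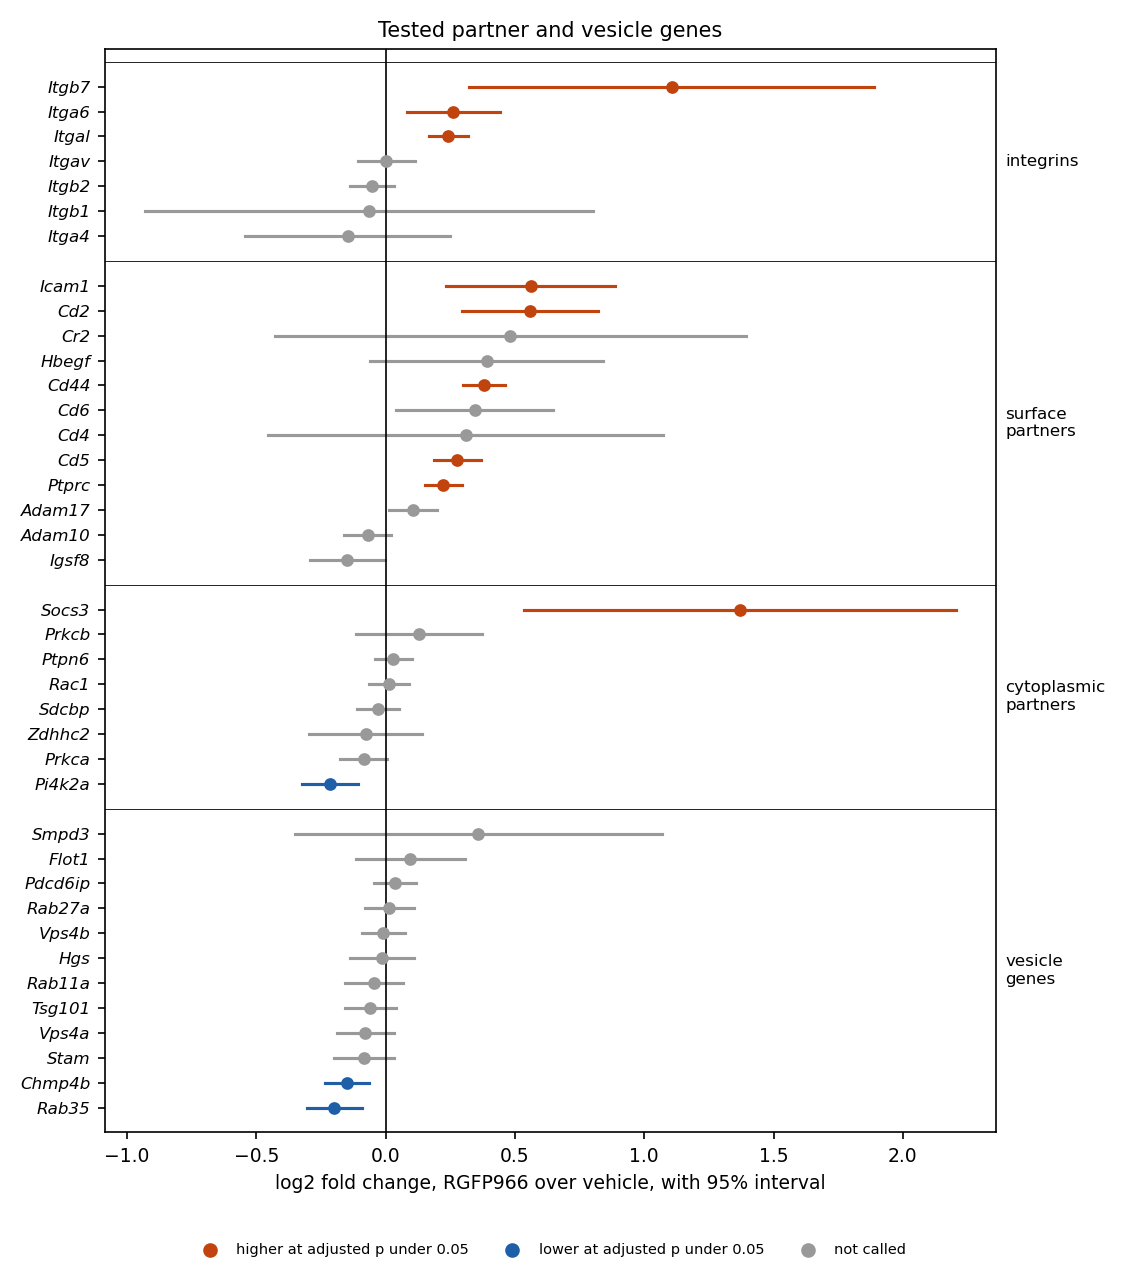
Log2 fold change with 95% interval of the 39 tested partner and vesicle genes, in the groups integrins, surface partners, cytoplasmic partners and vesicle genes. Of the 12 calls, 9 are higher and 3 lower at an adjusted p under 0.05, and Socs3 and Itgb7 have the widest intervals of those called.

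Of 18 nearest coding genes on either side of the members, members themselves left out, 10 were tested and 3 called, near the 23.3% of all genes. Bzw2, 49334 bases from Tspan13, rose by 0.13 (adjusted p = 0.0118; 0.0712 without RGFP966 library 2), where Tspan13 rose by 0.41. Cdk4 and Tspan18, given above, were the others. Tspan32 and Cd81 are each other's neighbours, 33094 bases apart on the same strand, and were counted at 122 to 127 and at 0.130 to 0.320 CPM in vehicle libraries. Cd82 lies 84605 bases from Tspan18, and both rose, by 0.16 and 0.44.

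The other neighbours that were tested did not pass the test with all libraries. In log2 fold change, Lrif1, next to Cd53, measured -0.011 (adjusted p = 0.915). Olfr266 on its other side had 1 count in all. Tead2, next to Cd37, measured -0.12, Polr2l, next to Cd151, -0.022, Agap2, next to Tspan31, -0.11, and Trpm5, next to Cd81, 0.43. Trpm5 passed without vehicle library 1 (0.70, adjusted p = 0.0338), and measured 0.19 without vehicle library 2. Around Cd63, Gdf11 measured 0.21 (adjusted p = 0.0579) and Rdh5 -0.21. Gdf11 passed in 6 of 16 alternatives, among them those without vehicle library 2 (0.26, adjusted p = 0.0382) or RGFP966 library 2 (0.26, adjusted p = 0.0370), in a range from 0.0354 to 0.259. Plekhg6 and Vwf beside Cd9, Slc6a16 beside Cd37, Gm10803 beside Cd82, Cracr2b beside Cd151, Agr2 beside Tspan13 and Ascl2 beside Tspan32 had too few counts to test.

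Over the 6 libraries, the genes most like Cd53 in log2 CPM, out of 9990 with a mean of at least 5 CPM, were 2010007H06Rik (Pearson r = 0.999), Snx33, a sorting nexin (r = 0.999), and Hnrnpdl, an RNA-binding protein (r = 0.999). Their log2 fold changes were 0.65, 0.50 and 0.23. Most like Tspan32 were Tmem59 (r = 0.996), Hdac5 (r = 0.994) and Tagap1 (r = 0.992), at -0.05, -0.12 and -0.17. By edgeR, Tmem59 (adjusted p = 0.557) and Hdac5 (0.104) were not called. Tagap1 was called lower (3.69e-03), but not without RGFP966 library 2 (0.0588). The libraries fall into the 2 groups, which share their conditions, so these coefficients mostly carry the difference between groups and are a description.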

How the data were processed

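RNA of 6 EL4 libraries was sequenced after NEBNext Ultra preparation, per the labels' protocols. The authors deposited 1 table of raw read counts per Ensembl gene on mm10. The submitters' processing notes name CASAVA, Bowtie2 2.2.3, TopHat2, HISAT2 2.1.0 and HTSeq 0.6.0, with no role given, and which aligner made the counts is not given in those notes.

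From these counts, genes passing edgeR's filterByExpr were scaled by TMM and tested by edgeR 4.0.16 (robust quasi-likelihood F test, R 4.3.3) across all 13484 genes kept, two-sided, with Benjamini-Hochberg adjustment over all of them. Standard errors are the log2 fold change over the root of F, and intervals are 95%. CPM uses each library's total over the genes kept, multiplied by its TMM factor. Gene positions, exon lengths and overlaps are from GENCODE M21, and promoters from RefSeq on GRCm38.p6. The fit was tested on simulated counts first. The alternatives were other scalings, filters, DESeq2 1.42.0, limma-voom (limma 3.58.1), thinning, the replicate number as a block and leaving out each library. Another length for levels was added after seeing the data.

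The members and lists were chosen with earlier results of these data known. Named genes are all members, called relatives and those that escort ADAM10, in each partner or vesicle list up to 4 called genes of smallest p in each direction with Itgb1, Itga4, Adam10, Igsf8 and Ptprc, the nearest coding neighbours and overlapping genes, the 3 genes most like Cd53 and Tspan32, and Hdac3. Others were named after their values were seen: Itgb2, Itga5, Itgav, Icam1, Cd22, Pax5, Pdgfra and the marker genes. Totals of 12935443 to 16451017 counts lie behind the values. A gene at 0 is given the limit of 3 counts over the pooled libraries of a group, and intervals on counts cover counting error alone. No sample was left out of the main results.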

Additional observations from a re-analysis of the deposited data

How the results depend on the processing

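Over 16 alternatives and 49 named genes, 766 fold changes had an adjusted p, as some genes had none in some alternatives. Of the 766, 714 kept their direction and side of the threshold, 24 lost a call, 10 gained one and 18 changed sign. None of those 18 was in a called gene. The calls of Cd53, Tspan13 and Tspan32 held in all 16. The vesicle list had 0 to 2 calls when 1 library was left out, with 0 without RGFP966 library 3. Without 1 library, the log2 fold change ranged from -0.30 to 0.0085 in Itga4, -0.27 to 0.25 in Itgb1, -0.039 to 0.024 in Lrif1, -0.55 to 0.31 in Tead2, -0.44 to 0.082 in Rdh5 and -0.10 to 0.040 in Polr2l. Lrif1 was 0.013 with upper-quartile factors, 0.0040 with total counts, 0.0044 with a minimum mean of 5 CPM and 0.0047 after thinning, and Polr2l 0.0018 with upper-quartile factors. The causes were not tested. Upper-quartile factors gave 1838 genes higher and 1270 lower, beside 1543 and 1602. Over all tested genes, deviations from the group means correlated at -0.018, 0.013 and 0.0084 between libraries of the same replicate number. A pairing that touches only some genes could be missed by this, so pairing is not excluded. With the replicate block, 3431 genes were called beside 3145, with 4 members, 3 other tetraspanins, 12 partners and 2 vesicle genes. Depth limits Cd9, Cd63 and Cd81, whose changes could not be seen.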
